A study of Mus musculus with 6 samples.

Results

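The fibrillar collagen chains are the products of Col1a1, Col1a2, Col2a1, Col3a1, Col5a1, Col5a2, Col5a3, Col11a1 and Col11a2, and these 9 genes were taken by symbol from the 19730 rows of an expression table of primary mouse mesangial cells. Fibrillar collagens are secreted proteins of which chains wind around each other into a triple helix, and the helices then pack side by side into banded fibrils. Type I is the bulk collagen of most connective tissue, type III is laid down in the same fibrils, and types V and XI are minor collagens that sit inside a fibril, help to start it and limit its width. Type II is the main collagen of cartilage. Mesangial cells hold the capillary loops of the kidney glomerulus together and can contract, and interstitial collagens of this family are known for their build-up in scarred glomeruli, whereas the normal mesangial matrix is mainly type IV collagen.

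There were 3 Control libraries and 3 TGF-β1 libraries, the latter from cultures given TGF-β1, a cytokine that drives cells to produce matrix, at 10 ng/ml for 72 h. All cultures, Control included, were grown at 25.5 mM glucose with 20% fetal bovine serum and were at passage 3 to 6, so no comparison with normal glucose is possible. Genotype, strain, sex and age of the donor mice were not given in the sources used here. Nor were a vehicle for the Control cultures or the time of their harvest. It is not stated whether the 3 libraries of a group came from separate cultures, so the p-values measure the spread between these libraries, which may be technical.

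Depth was recovered from the lowest steps of the deposited values at 10.1 to 11.1 M (mega) fragments per library, with an assumed fragment length of 200 nt. Values are FPKM, fragments per kilobase of transcript per M mapped fragments, so levels can be compared between chains, except for Col1a2, whose row names a short transcript. The replicate 2 libraries stood apart together. Their deviations from the group means had a correlation across rows of 0.232, and the next highest among pairs of a Control and a TGF-β1 library was 0.117. Among the mesangial markers, Acta2, the smooth muscle actin, was at 997 ± 89.7 FPKM in Control and 3887 ± 348 FPKM in TGF-β1 libraries (SD, n = 3), and Pdgfrb, the platelet-derived growth factor receptor, was at 37.5 ± 4.82 and 29.2 ± 0.751 FPKM. Of the 8 mesangial markers, 5 (Itga8, Des, Thy1, Cspg4 and Agtr1a) had mean levels under 1 FPKM, so the labelled cell type rests on a part of its marker list.

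Most of the fibrillar chains were higher with TGF-β1. Of the 9 genes, 8 had a mean of at least 1 FPKM and were tested, and 6 of them were called higher, namely Col1a1, Col1a2, Col5a1, Col5a2, Col5a3 and Col11a1 (limma on log2(FPKM + 1), adjusted p under 0.05 over all 11898 rows tested). No chain was called lower. Col3a1 and Col11a2 were not called, and Col2a1 was below the filter. The background is high in this comparison, since 48.1% of all rows were called, 24.5% higher and 23.6% lower. Col1a2 and Col5a3 passed the filter only through their TGF-β1 libraries, so the count over the 8 is not read against these shares. Without a filter all 9 chains were tested, and 6 of the 9 were called higher, where 30.5% of all 19730 rows were called and 14.6% were called higher. Over all 9 the median change was 0.88 on the log2 scale, against -0.03 for all rows, and 4 of the 9 were called with a log2 change of at least 1, as were 4.03% of all rows. The groups did not overlap in 6 of the 9 chains. They did not overlap in 59.4% of the rows past the filter either, a share over a different set, which leaves out Col2a1. The share without a filter was not determined, so the 6 of 9 is not read as a result about the chains. When values were rescaled to the sum of the protein-coding rows, the median of all rows shifted from -0.02 to -0.19 and the calls from 2911 higher and 2810 lower to 2003 higher and 3924 lower, while the count of chains called higher was 6 in both.

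**Figure D1:**
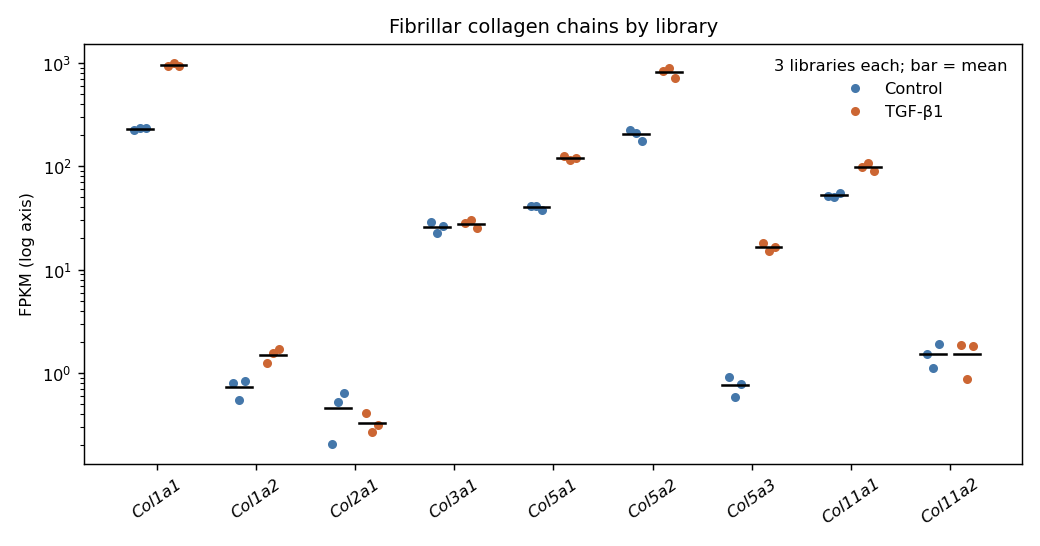
FPKM of the 9 fibrillar chain genes on a log axis, with 1 point per library (3 Control, 3 TGF-β1) and a bar at the group mean. Col1a1 and Col5a2 stand at the top in both groups, Col5a3 moves from 0.761 to 16.5 FPKM on average, and the points of Col3a1, Col11a2 and Col2a1 overlap between the groups.

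The chains of type I collagen were examined first. Col1a1 encodes the chain that makes up the larger part of the type I trimer. It lies on mm9 chromosome 11, 94797538 to 94814356, on the plus strand. In Control replicates 1 to 3 it was at 224, 234 and 236 FPKM, and in TGF-β1 replicates 1 to 3 at 932, 996 and 931 FPKM. The Control libraries differed little among themselves, with a coefficient of variation of 2.64%, and every TGF-β1 library was far above them. The mean rose from 231 ± 6.10 to 953 ± 37.4 FPKM (SD, n = 3), 4.12-fold, with a log2 change of 2.04 (SE 0.0790; adjusted p 1.72e-05, limma). Its level was higher than that of 96.6% of tested rows in Control and 98.8% with TGF-β1. Col1a1 overlaps Gm17329 on the minus strand, and whether the counting used strand was not given in the sources used here.

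Col1a2 encodes the partner chain of type I collagen (chromosome 6, 4454814 to 4491543, plus strand), and its values are uncertain. It was listed at 0.805, 0.546 and 0.826 FPKM in Control and at 1.24, 1.56 and 1.69 FPKM with TGF-β1. All 3 TGF-β1 libraries were above all 3 Control libraries, and the log2 change was 0.53 (SE 0.141; adjusted p 0.0219, limma). Its row names a transcript of 850 nt with 13 exons, whereas the longest of the gene's 9 transcripts has 5347 nt. The FPKM correspond to 3.92 to 11.9 fragments per library at the shorter length and to 31.0 to 94.1 at the longer. With a pseudocount of 0.1 the log2 change was 0.96. The call was lost within replicates 1 and 3 alone (limma adjusted p 0.0841) and without TGF-β1 replicate 3 (limma adjusted p 0.0570). Among genes with several transcripts, rows naming a transcript at most 0.35 as long as the longest had a median of 7.51 FPKM. Rows naming a transcript at least 0.99 as long had a median of 6.16 FPKM. Why Col1a2 was listed low was not tested. Whether a row holds the whole gene or only the named transcript is not stated, so the low level of Col1a2 cannot be read as the level of the gene. The same limit applies to the ratio of Col1a1 to Col1a2, which was 278, 428 and 285 in the Control libraries and 751, 638 and 550 in the TGF-β1 libraries. That ratio was 1.98-fold higher with TGF-β1 (exact permutation test, two-sided, p = 0.1, the smallest that 3 against 3 libraries can give).

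The rows of the other 8 chains named transcripts of 5104 to 8406 nt with 51 to 67 exons, at least 93.4% as long as the longest transcript of their gene.

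Col3a1, the only chain of type III collagen, did not pass the test. It lies on chromosome 1, 45368383 to 45406551, plus strand. Its values were 29.0, 22.3 and 26.5 FPKM in Control and 28.4, 30.0 and 25.3 FPKM with TGF-β1. The groups overlapped, and the Control libraries covered most of the TGF-β1 range. The log2 change was 0.10 with a 95% interval from -0.19 to 0.39 (limma adjusted p 0.504). An increase of the size seen for Col1a1 lies outside that interval, and 1322 to 1725 fragments stood behind each value. The sign of this small difference turned when values were rescaled to the protein-coding sum (-0.08) and within replicates 1 and 3 alone (-0.05).

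The chains of type V collagen all rose. Col5a1 (chromosome 2, 27741945 to 27895034, plus strand) encodes the chain found in most type V trimers. It was at 41.5, 41.0 and 37.3 FPKM in Control and at 125, 115 and 120 FPKM with TGF-β1. The groups were well apart, with means of 39.9 ± 2.29 and 120 ± 5.16 FPKM (SD, n = 3), and the log2 change was 1.56 (SE 0.0786; adjusted p 3.78e-05, limma). Col5a1 overlaps the long non-coding RNAs 2810430I11Rik and Gm13372 on the minus strand.

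Col5a2 encodes the chain that pairs with Col5a1 in the usual type V trimer (chromosome 1, 45431166 to 45560127, minus strand). It was at 226, 210 and 176 FPKM in Control and at 833, 888 and 714 FPKM with TGF-β1. It reached nearly the level of Col1a1 in both groups. The mean rose 3.98-fold, from 204 ± 25.6 to 812 ± 89.0 FPKM (SD, n = 3), with a log2 change of 1.99 (SE 0.134; adjusted p 1.10e-04, limma). Col5a2 and Col3a1 are neighbours on chromosome 1, lying tail to tail on opposite strands with 24614 bp between them. The ratio of Col3a1 to Col5a2 was 0.128, 0.106 and 0.151 in the Control libraries and 0.0342, 0.0338 and 0.0354 in the TGF-β1 libraries. It was 3.70-fold lower with TGF-β1, with no overlap (exact permutation test, two-sided, p = 0.1, the smallest possible).

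Col5a3, the third type V chain and a component of a rarer trimer, had the largest change among the 9 genes (chromosome 9, 20574494 to 20619511, minus strand). It was at 0.918, 0.582 and 0.784 FPKM in Control and at 17.9, 15.2 and 16.5 FPKM with TGF-β1. Its Control mean was above 1.50% of tested rows and its TGF-β1 mean above 58.7%. Since Col5a3 passed the filter only through its TGF-β1 libraries, the low place in Control was set by the filter. The mean rose from 0.761 ± 0.169 to 16.5 ± 1.35 FPKM (SD, n = 3). This is 21.7-fold in FPKM and 3.32 on the log2(FPKM + 1) scale, which understates changes of low genes (SE 0.114; adjusted p 1.13e-05, limma). With a pseudocount of 0.1 the log2 change was 4.29, and without a filter the adjusted p was 4.62e-05 (limma). It ranked 57 among the 11898 rows by log2 change. About 38.0 fragments stood behind the lowest library and 1157 behind the highest. Relative to Col5a1, the Col5a3 level went from 0.0221, 0.0142 and 0.0210 in Control to 0.143, 0.132 and 0.138 with TGF-β1, a 7.34-fold higher ratio (exact permutation test, two-sided, p = 0.1). With 1 FPKM added to each gene, the log2 difference of that ratio was 1.75 in place of 2.87. A 7SK annotation lies within Col5a3 on the plus strand.

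Of the type XI chains, Col11a1 was called and Col11a2 was not, and the difference between them was not tested. Col11a1, which can also assemble with type V chains outside cartilage, lies on chromosome 3, 113733458 to 113923636, plus strand. It was at 51.3, 50.8 and 55.6 FPKM in Control and at 97.2, 107 and 89.1 FPKM with TGF-β1. Every TGF-β1 library exceeded every Control library, and the log2 change was 0.88 (SE 0.0924; adjusted p 5.68e-04, limma). Col11a2, its partner in cartilage (chromosome 17, 34176382 to 34203630, plus strand), was at 1.54, 1.12 and 1.90 FPKM in Control and at 1.86, 0.868 and 1.83 FPKM with TGF-β1. The groups overlapped widely, with means of 1.52 ± 0.392 and 1.52 ± 0.565 FPKM (SD, n = 3). The log2 change was -0.01 with a 95% interval from -0.54 to 0.51 (limma adjusted p 0.964), on 49.6 to 116 fragments per library. Changes inside that interval remain possible. The sign for Col11a2 turned without TGF-β1 replicate 2 (0.19) and without Control replicate 3 (0.09).

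Col2a1, the cartilage collagen (chromosome 15, 97806033 to 97835155, minus strand), was at 0.203, 0.528 and 0.638 FPKM in Control and at 0.409, 0.266 and 0.311 FPKM with TGF-β1. These values rest on 11.0 to 33.6 fragments. In the test without a filter, in which 30.5% of 19730 rows were called, its log2 change was -0.12 (SE 0.127; adjusted p 0.517, limma), and no difference was detected. Among cartilage markers, Acan, the main cartilage proteoglycan, stood at 0 in all Control libraries and at a mean of 0.00885 FPKM with TGF-β1. The summed level of the 9 markers in the table was 9.92 to 12.2 FPKM in Control and 12.7 to 16.5 FPKM with TGF-β1. The larger part of it was held by Sox9, a regulator of Col2a1 and Col11a2. Col9a3, a marker of the same list, rose from 0.299 ± 0.0766 to 1.02 ± 0.109 FPKM (adjusted p 0.00271 by limma without the filter). Sox9 was at 8.80 ± 1.16 and 12.5 ± 2.35 FPKM and was not called (limma adjusted p 0.0571).

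Of the 2 remaining vertebrate fibrillar genes, Col24a1 was listed at 0 in 5 libraries and at 0.0573 FPKM in Control replicate 2. Col27a1 rose from 1.28 ± 0.407 to 6.71 ± 0.359 FPKM (SD, n = 3), a change of 1.77 on the log2 scale (adjusted p 2.76e-04, limma), although its row names a retained-intron transcript.

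**Figure D2:**
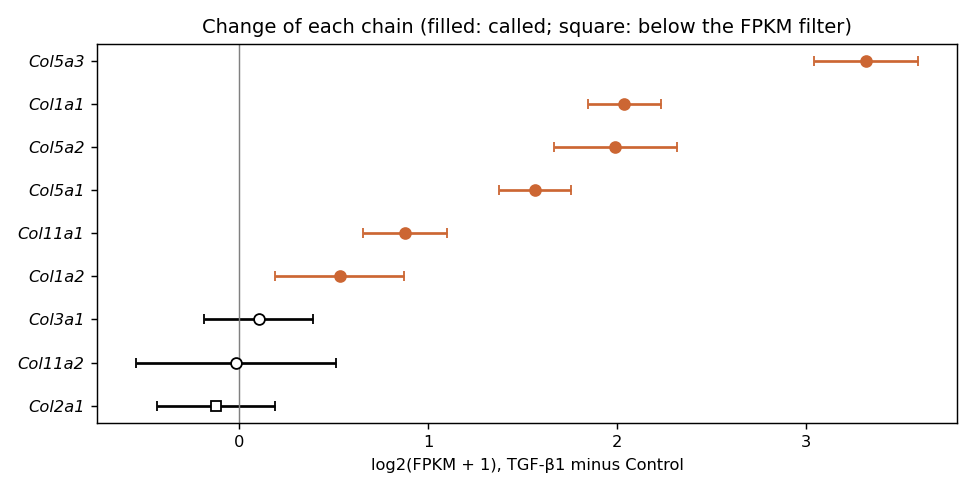
Change of each chain on the log2(FPKM + 1) scale, TGF-β1 minus Control, with the 95% interval of the limma test from 3 libraries per group. Filled points were called and the square marks Col2a1, which was below the filter. Col5a3 stands at 3.32, Col1a1 and Col5a2 lie close together at 2.04 and 1.99, and the intervals of Col3a1, Col11a2 and Col2a1 include 0.

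The order of the levels also differed between the groups. In Control, Col1a1 came first and Col5a2 second, and their ranges overlapped. Col11a1, Col5a1, Col3a1 and Col11a2 followed, each with no overlap with the next, and Col5a3, Col1a2 as listed and Col2a1 came last with overlapping neighbours. With TGF-β1, Col1a1 and Col5a2 no longer overlapped. Col5a1 stood above Col11a1 in all 3 TGF-β1 libraries and below it in all 3 Control libraries. The ratio of Col5a1 to Col11a1 was 0.809, 0.806 and 0.671 in the Control libraries and 1.29, 1.08 and 1.34 in the TGF-β1 libraries, a 1.62-fold difference (exact permutation test, two-sided, p = 0.1). Col5a3 moved from below Col11a2 to above it.

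The summed FPKM of the 9 chains was 575, 560 and 535 in the Control libraries and 2037, 2153 and 1899 in the TGF-β1 libraries, 3.64-fold higher (exact permutation test, two-sided, p = 0.1). The sum and the shares of it take Col1a2 as listed, and if its row holds less than the gene, they understate type I. Without Col1a2 the log2 difference of the sum was 1.87, against 1.86 with it. Col1a1 and Col5a2 carried most of this sum. Col1a1 made up 41.6% ± 2.54 of it in Control libraries and 47.0% ± 1.76 in TGF-β1 libraries (SD, n = 3). Col5a2 made up 36.5% ± 3.30 and 39.9% ± 2.02. The share of Col11a1 was 9.46% ± 0.812 in Control and 4.81% ± 0.137 with TGF-β1, although its level rose. The share of Col3a1 was 4.66% ± 0.588 and 1.37% ± 0.0365, with its level not called. The shares of the groups did not overlap in these chains, nor in any other chain except Col5a2.

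**Figure D3:**
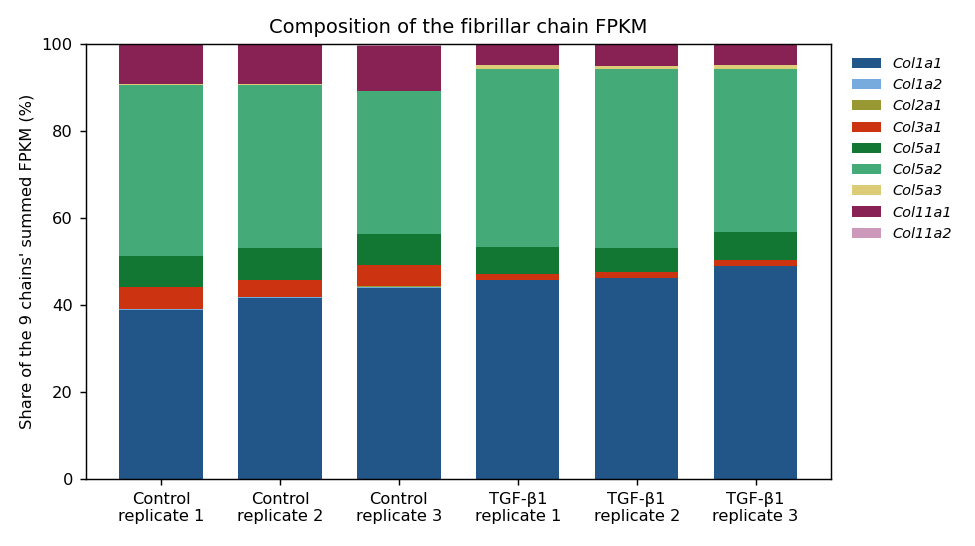
Share of each of the 9 chains in their summed FPKM, in percent, with 1 stacked bar per library. The bars of Col3a1 and Col11a1 are narrower in all 3 TGF-β1 libraries than in any Control library, and Col1a1 and Col5a2 fill most of every bar.

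Ratios within a library do not depend on how libraries are scaled to each other. The ratio of type V to type I (Col5a1, Col5a2 and Col5a3 over Col1a1 and Col1a2) was 1.19, 1.07 and 0.904 in the Control libraries and 1.05, 1.02 and 0.912 in the TGF-β1 libraries. The groups overlapped, and the log2 difference was -0.08 (exact permutation test, two-sided, p = 0.5). Without Control replicate 1 the sign turned, to 0.01. Type I is in effect Col1a1 alone here, since Col1a2 is listed so low, and without Col1a2 the log2 difference was -0.09. The same limit holds for the ratio of type III to type I, whose log2 difference was -1.93 both with and without Col1a2. The ratio of type III to type I was 0.129, 0.0954 and 0.112 in the Control libraries and 0.0305, 0.0301 and 0.0271 in the TGF-β1 libraries, 3.82-fold lower (exact p = 0.1, two-sided permutation). Col11a1 relative to Col1a1 was 0.229, 0.218 and 0.236 in the Control libraries and 0.104, 0.107 and 0.0957 in the TGF-β1 libraries, 2.22-fold lower (exact p = 0.1, two-sided permutation). Within type V, Col5a1 relative to Col5a2 was 1.33-fold lower with TGF-β1, from 0.184, 0.195 and 0.212 to 0.150, 0.129 and 0.168 (exact p = 0.1, two-sided permutation). Of the 9 ratios and sums, 8 had no overlap between groups and the smallest possible p, which was 0.113 after adjustment over the 9. The planned ones were type V to type I, type III to type I, Col1a1 to Col1a2 and the sum, and the other 5 were added after the data were seen.

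**Figure D4:**
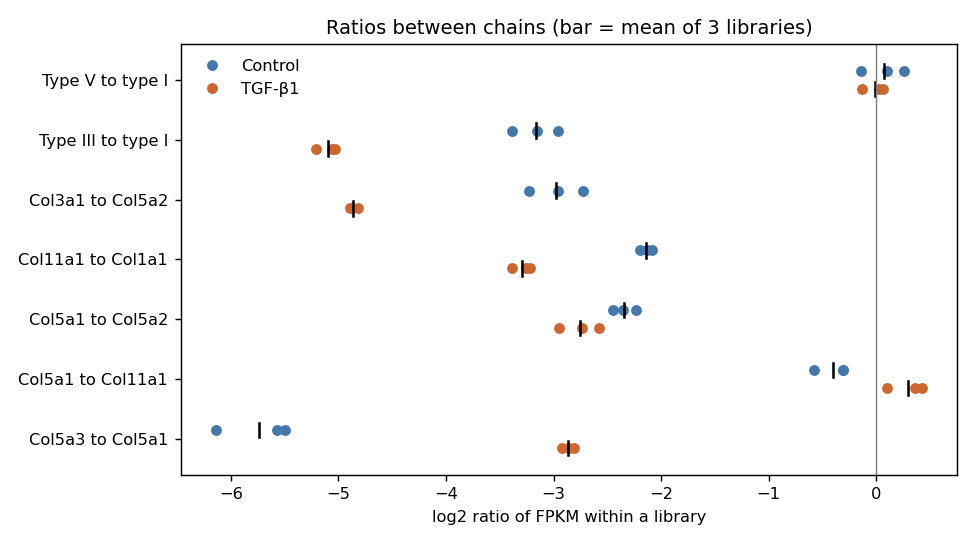
Log2 ratios of FPKM between chains within each library, with 1 point per library and a bar at the mean of the 3 libraries of a group. The points of type V to type I overlap around 0, while those of the other 6 ratios drawn are apart (Col1a1 to Col1a2 is not drawn), with Col5a3 to Col5a1 higher and Col3a1 to Col5a2 lower with TGF-β1.

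RefSeq promoter windows (GRCm38.p6) were used for 6 of the 9 genes, namely Col1a2, Col3a1, Col5a1, Col5a3, Col11a1 and Col11a2. Windows of Col1a1, Col2a1 and Col5a2 were not used here. The 250 bases before the start are shown for Col5a3, which rose most, for Col11a1, which rose less, and for Col3a1, which was not called. Each runs 5′ to 3′ on the gene's strand. Capitals mark matches, on either strand, to CCAAT (the box bound by NF-Y), to GGGCGG (bound by Sp factors), to CAGAC (the core letters of SMAD binding), to TGANTCA (the AP-1 site) and to TATAAA (the box near many starts), of which no 2 matches overlap here.
Col5a3: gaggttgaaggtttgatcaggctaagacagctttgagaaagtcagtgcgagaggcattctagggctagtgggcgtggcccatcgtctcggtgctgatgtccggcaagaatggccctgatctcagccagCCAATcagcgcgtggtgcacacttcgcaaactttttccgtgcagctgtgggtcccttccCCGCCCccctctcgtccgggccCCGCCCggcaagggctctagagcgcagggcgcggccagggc
Col11a1: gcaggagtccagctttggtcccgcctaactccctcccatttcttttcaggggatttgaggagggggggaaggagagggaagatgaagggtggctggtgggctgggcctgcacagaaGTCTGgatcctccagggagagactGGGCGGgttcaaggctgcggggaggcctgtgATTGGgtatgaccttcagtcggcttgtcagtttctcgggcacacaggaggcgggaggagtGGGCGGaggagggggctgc
Col3a1: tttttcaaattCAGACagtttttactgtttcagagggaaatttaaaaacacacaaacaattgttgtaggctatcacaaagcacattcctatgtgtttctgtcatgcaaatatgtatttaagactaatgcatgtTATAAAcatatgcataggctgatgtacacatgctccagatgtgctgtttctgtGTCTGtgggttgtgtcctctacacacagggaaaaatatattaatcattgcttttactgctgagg
The windows are chr9:20815068-20815317 on the minus strand, chr3:114030290-114030539 on the plus strand and chr1:45311288-45311537 on the plus strand. GC content was 62.8% in Col5a3, 62.4% in Col11a1 and 35.2% in Col3a1, and the median of all 32851 windows was 52.4%. Col5a3 held 1 CCAAT and 2 GGGCGG matches and no CAGAC. Col11a1 held 1 CCAAT, 2 GGGCGG and 1 CAGAC match. Col3a1 held 2 CAGAC matches and 1 TATAAA, and neither CCAAT nor GGGCGG. Col1a2, Col5a1 and Col11a2 each held 2 GGGCGG matches. Among all windows 33.8% held CCAAT, 32.7% GGGCGG, 42.2% CAGAC, 6.75% TGANTCA and 12.4% TATAAA. A match is a run of letters and does not show that a factor binds.

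The genes that make, process and bind fibrillar collagen were examined by step, from lists of 88 genes in the table. Of these, 65 were tested and 47 called, 37 higher and 10 lower. That compares with 24.5% higher and 23.6% lower among all rows, and the median log2 change was 0.59 against -0.02. The called genes Pcolce2, Tll1 and Loxl4 passed the filter only through their TGF-β1 libraries. Without a filter 40 of the 88 were called higher and 13 lower, where 2873 (14.6%) of all 19730 rows were called higher and 3153 lower. The median log2 change of the 88 was 0.39, against -0.03 for all rows. Genes given below only for a call that was lost were chosen after their values were seen. Hydroxylation and chaperone genes leaned higher, with 11 of 16 tested genes higher and none lower. Fkbp14, a chaperone of the endoplasmic reticulum, rose most, from 8.39 ± 0.961 to 25.3 ± 0.689 FPKM (change of 1.49 on the log2 scale; adjusted p 9.81e-05, limma). Serpinh1, the collagen-specific chaperone HSP47, was the most abundant and rose from 431 ± 37.4 to 796 ± 83.1 FPKM (change of 0.88 on the log2 scale; adjusted p 0.00153, limma). Of the genes for procollagen export, 5 of 6 were higher. The call of Sar1b, a small GTPase of the same coat, was lost within replicates 1 and 3 alone, under quantile normalization, under rescaling to the protein-coding sum and in 5 of the 6 tests without 1 library, all but that without Control replicate 1, which leaves 4 of 6. Sec24d, a coat protein of vesicles leaving the endoplasmic reticulum, had a log2 change of 1.60 (limma adjusted p 2.97e-05). Sec13, with the highest mean over all libraries, had a log2 change of 1.20 (limma adjusted p 3.57e-04). In Control, Sec13 was at 67.0 FPKM and Sar1b at 91.9 FPKM.

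Outside the cell the members moved in both directions. Of 6 tested genes of propeptide processing, 4 were higher and 1 lower. Of the 4, Tll1 and Pcolce2 passed the filter only through their TGF-β1 libraries. That count is therefore not read against the shares of all rows. Pcolce and Pcolce2, which both enhance removal of the carboxyl propeptide, went opposite ways. Pcolce fell from 1120 ± 92.4 to 283 ± 28.0 FPKM (change of -1.98 on the log2 scale; adjusted p 6.06e-05, limma), and Pcolce2 rose from 0.843 ± 0.428 to 9.63 ± 1.22 FPKM (change of 2.55 on the log2 scale; adjusted p 1.62e-04, limma). Among the crosslinking oxidases, 3 of 5 were higher, of which Loxl4 passed the filter only through its TGF-β1 libraries. The count of these oxidases is likewise not read against the shares of all rows. Loxl2, which rose most and had the highest mean over all libraries, went from 68.1 ± 5.95 to 403 ± 31.4 FPKM (change of 2.55 on the log2 scale; adjusted p 1.82e-05, limma). In Control, Loxl1 was the higher, at 202 ± 53.3 FPKM. Among genes of the fibril surface, 5 of 7 were higher and 2 lower, where 24.5% of all tested rows were higher and 23.6% lower. Col16a1 is among the 5. The call of Col16a1, a collagen found at fibril surfaces, was lost without a filter, under quantile normalization, under rescaling to the protein-coding sum and in 5 of the 6 tests without 1 library, all but that without TGF-β1 replicate 2. Fn1, the fibronectin on which fibrils are laid down, rose from 386 ± 63.4 to 3134 ± 103 FPKM (change of 3.03 on the log2 scale; adjusted p 2.55e-05, limma). Dcn, the proteoglycan decorin that binds fibrils and TGF-β, fell from 104 ± 1.92 to 3.30 ± 0.472 FPKM (change of -4.62 on the log2 scale; adjusted p 2.69e-06, limma). Sparc, a collagen-binding protein, was the most abundant at 2266 ± 217 and 5488 ± 410 FPKM (change of 1.28 on the log2 scale; adjusted p 5.26e-04, limma).

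Among all tested rows 24.5% were called higher and 23.6% lower. Of 5 tested receptors, 1 was higher and 3 lower, and the call of Ddr1, a receptor kinase for collagen, was lost without any 1 of the Control libraries. Itgb1, the integrin beta chain shared by all collagen integrins and by others, rose from 259 ± 9.96 to 1026 ± 16.4 FPKM (change of 1.98 on the log2 scale; adjusted p 1.82e-05, limma). Itga1, an alpha chain of a collagen integrin, fell from 6.55 ± 0.626 to 1.44 ± 0.321 FPKM (change of -1.64 on the log2 scale; adjusted p 2.15e-04, limma). Itga2, another such chain whose mean over all libraries was under 1 FPKM, rose from 0.106 ± 0.0687 to 1.83 ± 0.351 FPKM. Its log2 change was 1.35 (adjusted p 5.55e-04 by limma without the filter). Itga11, also such a chain, was not called (limma adjusted p 0.243). Of 5 tested collagenases and inhibitors, 3 were higher and 1 lower. Timp1, an inhibitor of matrix metalloproteinases, had a log2 change of 1.27 (limma adjusted p 1.43e-04), whereas Timp2, another inhibitor, fell by 0.55 (limma adjusted p 0.00417). Mmp2, a gelatinase with the highest mean of the list over all libraries, had a log2 change of 0.50 (limma adjusted p 0.0125), a call that was lost under quantile normalization and under rescaling to the protein-coding sum. In Control, Mmp2 was at 412 FPKM and Timp2 at 418 FPKM. Of 15 tested transcription regulators of collagen genes, 5 were higher, 3 lower and 7 not called, which is near the shares of all tested rows. Among these, the call of Rfx1 was lost without a filter, under quantile normalization and without Control replicate 1, Control replicate 3, TGF-β1 replicate 1 or TGF-β1 replicate 2, and that of Sp3 was lost within replicates 1 and 3 alone. Creb3l1, a membrane-bound factor that activates collagen genes, went up from 13.3 ± 1.07 to 59.5 ± 6.51 FPKM (a difference of 2.08 on the log2 scale; adjusted p 4.58e-05, limma). Sox5, a partner of Sox9 in cartilage, fell from 3.34 ± 0.291 to 1.29 ± 0.405 FPKM (change of -0.93 on the log2 scale; adjusted p 0.00422, limma). Nfyc, a subunit of the factor that binds CCAAT, had the highest mean over all libraries, although with TGF-β1 its 46.4 FPKM were below Creb3l1. Nfyc fell by 0.37 on the log2 scale (limma adjusted p 0.0351), a call lost in 4 of the 6 tests without 1 library, those without Control replicate 1, Control replicate 3, TGF-β1 replicate 1 or TGF-β1 replicate 3.

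**Figure D5:**
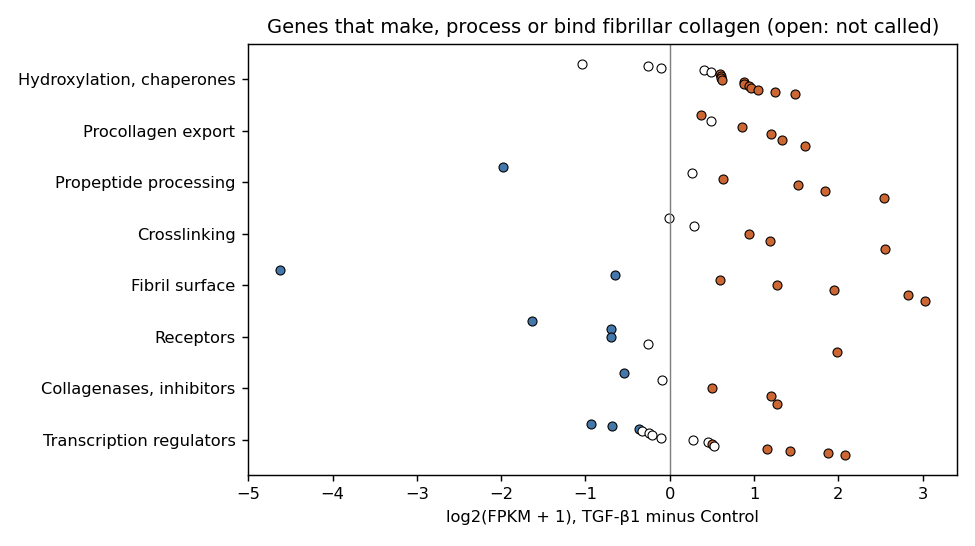
Log2 change, TGF-β1 minus Control, of the 65 tested genes that make, process, bind or regulate fibrillar collagen, with 1 point per gene and a line per step. Filled points were called (right of 0 higher, left lower) and open points were not. Procollagen export lies wholly to the right of 0, while the fibril surface line runs from Dcn at -4.62 to Fn1 at 3.03.

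Markers of other cell types were examined because cells other than mesangial cells could carry fibrillar collagen. In bulk RNA, fewer cells of a type and less RNA per cell cannot be told apart. Of 8 fibroblast markers, 7 had means under 1 FPKM, and their summed level was 6.27 to 6.95 FPKM in Control and 2.34 to 3.28 FPKM with TGF-β1, with Dpt as the only tested marker, called lower. The 6 endothelial markers summed to 0.743 to 0.969 FPKM in Control and 0.440 to 1.14 FPKM with TGF-β1. All 4 tested podocyte markers were called lower, and the defining Nphs1 had a mean under 1 FPKM. Tubular markers in the table summed to 115 to 148 FPKM in Control and 7.47 to 9.03 FPKM with TGF-β1, most of it Cdh16. Krt18, a keratin of the same list, went the other way, from 0.279 ± 0.120 to 1.57 ± 0.219 FPKM (adjusted p 0.00143 by limma without the filter), and the defining Cdh1 was at 0.0174 and 0.0638 FPKM. Macrophage markers summed to 87.0 to 114 FPKM in Control and 9.03 to 11.3 FPKM with TGF-β1, most of it Cd14, and Ptprc stood at 0 in all Control libraries. The tubular, fibroblast and macrophage sums and the tested podocyte markers thus were lower where the collagen chains were higher, with no overlap between groups in the 3 sums, and their part in the collagen results was not tested.

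The profiles most like those of single chains were sought among 9853 protein-coding rows that were not members, by the root mean square difference of the 6 values of log2(FPKM + 1) minus the Control mean. For Col1a1 these were 2010011I20Rik, Ass1, Sorcs2, Bcat1 and Sc5d, at differences of 0.0352 to 0.0715. For Col5a3 they were Acsbg1, Htr2b, Cnn1, Gadd45a and Fbln2, at 0.0983 to 0.192. For Col11a2, the tested chain with the lowest change, they were Bcas2, Hk1, Ino80e, Ssu72 and Cno, at 0.0298 to 0.0785.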

How the data were processed

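Clean reads were aligned by the authors to mm9 with TopHat (TopHat2 2.0.11 in the submitters' processing notes), and FPKM were estimated with Cufflinks. The deposited table holds FPKM in 1 column per library, with each column matched to a sample (0 unmatched). No scaling between libraries is stated. The authors' own test used a count model, which FPKM do not allow here.

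The log2(FPKM + 1) values of rows averaging 1 FPKM or more entered a two-sided test by limma 3.58.1 (R 4.3.3; lmFit, then eBayes with a trend). P-values were adjusted by Benjamini-Hochberg over all these rows, and rows under 0.05 were called. The script was tested on simulated data. Single values were compared with exact permutation tests over libraries (scipy 1.17.1). Gene models and coordinates are GENCODE M1 on mm9. Groups came from the labels. A podocyte marker and the sum that holds it are not reported here. The members and gene lists were chosen with earlier results of these data known. Named companion genes were, per list, the called gene with the largest change in each direction and the gene with the highest mean FPKM. Itga2, Itga11 and Col9a3 were added after their values were seen. Fragments per value are approximate and cover counting error only. Alternatives tried were the pseudocount, filter, scaling, variance model, threshold, replicate block and each library left out.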

Additional observations from a re-analysis of the deposited data

How the results depend on the processing

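The calls of Col1a1, Col5a1, Col5a2, Col5a3 and Col11a1 held in all 17 alternatives, with log2 changes of 1.84 to 2.05, 1.37 to 1.61, 1.75 to 2.08, 3.18 to 4.29 and 0.69 to 0.94. Col1a2 was the only chain whose call was lost. It was lost with the replicate block (limma adjusted p 0.0531), at a threshold of 0.01, within replicates 1 and 3 alone (0.0841) and without TGF-β1 replicate 3 (0.0570), and a filter of 3 FPKM left it out. The cause was not tested. The count of chains called was therefore 5 or 6, and 5 to 6 with each library left out. Called companion genes numbered 40 to 53, and none of the 47 changed sign. With the replicate block the calls of Nfyc and Sar1b were lost. The difference in Col3a1 reversed to -0.084 under rescaling to the protein-coding sum and to -0.048 within replicates 1 and 3 alone. That of Col11a2 reversed to 0.24 under quantile normalization, to 0.069 within replicates 1 and 3 alone, and ranged from -0.13 to 0.19 with each library left out (0.09 without Control replicate 3). Neither chain was called in any alternative. The type V to type I log2 difference ranged from -0.19 to 0.01 with each library left out and reversed only without Control replicate 1 (0.00837). With 1 FPKM added to each gene, the log2 difference of Col1a1 to Col1a2 went from 0.99 to 1.51 and that of Col5a3 to Col5a1 from 2.87 to 1.75. Whether the replicate numbers pair the libraries was not given in the sources used here, and 3 libraries per group cannot decide it. Deviations of same-numbered libraries had correlations across rows of 0.0921, 0.232 and 0.0853, and not every library correlated best with its own number. For libraries of different numbers the correlations ran from -0.194 to 0.117. With the replicate block 5 chains and 5391 rows were called, against 6 and 5721 without it, and ratios could not go below an exact p of 0.25. Leaving Col1a2 out of the sum and the type I level, an alternative chosen after seeing the data, reversed none of the 3 values it enters. Fragments were few for Col1a2, Col2a1, Col5a3 and Col11a2, whose lowest libraries rest on 3.92, 11.0, 38.0 and 49.6 fragments. The part of depth in the spread of these chains was not tested.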
